A study of Homo sapiens with 18 samples.

Results

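The vault RNA genes are small noncoding RNA genes of RNA polymerase III (Pol III), and their 4 members in human cells are VTRNA1-1, VTRNA1-2, VTRNA1-3 and VTRNA2-1. They were taken as the rows of the deposited count table that carry these names, which gave 4 of 175935 rows. The table came from small RNA-seq of HEK293T cells, a human embryonic kidney cell line, that had been transfected for 48 h with an siRNA against SSB (siSSB) or with a scramble siRNA (control). RNA was prepared from whole cells (total), from nuclei (nuc) or from cytoplasm (cyto), which made 6 groups of 3 libraries, 18 in all. The controls thus carried the transfection and a scramble siRNA as well, the titles mark all libraries as prepared with PNK, and the design text calls the 3 replicates of a condition biological. Whether the total, nuc and cyto RNA of 1 replicate number came from the same culture is not given. SSB encodes La, and the comparisons ask how depletion of La changes each vault RNA gene and where in the cell its reads lie.

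Vaults are large barrel-shaped ribonucleoprotein particles built mainly from the major vault protein, with vault RNAs as a minor component. Vault RNA genes are transcribed by Pol III from internal promoter elements called the A box and the B box, transcription ends at a run of T, and La binds the uridine tail that this leaves at the 3′ end of new Pol III transcripts. VTRNA1-1, VTRNA1-2 and VTRNA1-3 are neighbouring paralogs, VTRNA1-1 being known for binding the autophagy receptor SQSTM1, while VTRNA2-1, also called nc886, lies elsewhere on the same chromosome and is known for binding the kinase PKR rather than for a place in the vault.

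The genes are shown in full to let their 3′ ends be compared and to show which stretches they share, since shared stretches limit the assignment of reads. La binding was not measured here. All lie on chromosome 5 (hg38). VTRNA1-1 (chr5:140711276-140711373), VTRNA1-2 (chr5:140718926-140719013) and VTRNA1-3 (chr5:140726159-140726246) are on the plus strand between the coding genes ZMAT2 and PCDHA1, inside an annotated lncRNA of the same strand, ENSG00000292256. VTRNA2-1 (chr5:136080497-136080597) is on the minus strand between TGFBI and SMAD5 and overlaps no other annotated gene. Each counted row adds 25 nt on either side of the gene. The sequences below run from the first base of the gene to 25 nt past its end, 5′ to 3′ as DNA of the gene's strand. Capitals mark the B box core searched here, GTTCGANNC, and any run of 4 or more T.
VTRNA1-1: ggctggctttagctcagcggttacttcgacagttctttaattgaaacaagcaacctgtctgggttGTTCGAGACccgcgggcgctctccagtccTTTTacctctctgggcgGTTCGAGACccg
VTRNA1-2: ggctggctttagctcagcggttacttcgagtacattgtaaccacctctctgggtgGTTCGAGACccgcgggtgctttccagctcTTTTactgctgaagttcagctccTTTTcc
VTRNA1-3: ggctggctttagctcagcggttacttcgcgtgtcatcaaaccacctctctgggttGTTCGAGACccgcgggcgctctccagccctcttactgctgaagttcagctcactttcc
VTRNA2-1: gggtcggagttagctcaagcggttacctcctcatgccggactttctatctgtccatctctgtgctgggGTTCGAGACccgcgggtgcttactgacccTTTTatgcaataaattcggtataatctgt

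All 4 genes held the B box core on the gene strand, starting at base 66 of VTRNA1-1, base 56 of VTRNA1-2 and VTRNA1-3, and base 69 of VTRNA2-1. Among 1252 rows of 138 to 151 nt, the length range of these rows, 1.84% held it on the gene strand and 0.0799% on the other strand. A run of 4 T ended VTRNA1-1 (from base 95), VTRNA1-2 (from base 85) and VTRNA2-1 (from base 98), and 13.0% of the same rows had such a run in the last 12 nt or directly after. VTRNA1-3 had none within its 88 nt or the 25 nt after it, and the longest run of T in its last 12 nt was 2. VTRNA1-2 held a further run of 4 T downstream, from position 108, and VTRNA1-1 a further B box core, from position 112.

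The 50 nt before each gene also set VTRNA1-3 apart from its neighbours, so they are shown for the 3 paralogs (chr5:140711226-140711275, chr5:140718876-140718925 and chr5:140726109-140726158), with the letters TATAAT in capitals.
VTRNA1-1: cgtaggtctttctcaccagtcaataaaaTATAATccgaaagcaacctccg
VTRNA1-2: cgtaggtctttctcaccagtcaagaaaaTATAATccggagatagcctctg
VTRNA1-3: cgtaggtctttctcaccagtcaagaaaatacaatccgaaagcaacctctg
TATAAT began 22 nt before VTRNA1-1 and VTRNA1-2, was not found before VTRNA1-3 or VTRNA2-1 in this window, and was found before 2.24% of the 1252 rows.

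The paralogs are alike enough to share reads. The first 28 nt of VTRNA1-1, VTRNA1-2 and VTRNA1-3 are identical. Identity over the aligned genes was 81.6% between VTRNA1-1 and VTRNA1-2, 82.8% between VTRNA1-1 and VTRNA1-3 and 87.6% between VTRNA1-2 and VTRNA1-3, and 68.8% to 69.6% between VTRNA2-1 and the others. The share of 20-nt windows found once in the genome was 65.8% for VTRNA1-1, 79.7% for VTRNA1-2, 65.2% for VTRNA1-3 and 42.7% for VTRNA2-1. How reads with several positions were counted is not given in the sources used here, so reads shared between paralogs could not be separated. Strand was not used in the counting either: lnc-HARS-1, a 2867-nt row on the opposite strand that overlaps VTRNA1-1, held 23321 counts over all libraries, of which the 23304 counts of VTRNA1-1 are 99.9%.

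Column sums ranged from 21565995 to 158244813 counts, but overlapping rows count a read repeatedly, and the sum over rows of at most 500 nt, rows of identical counts taken once, was 2468129 to 7970923 counts. The snoRNA rows took 77.7% to 79.9% of that sum in control nuc and 75.8% to 82.3% in siSSB nuc, against 8.69% to 11.7% in control cyto and 7.86% to 10.7% in siSSB cyto, and mitochondrial tRNAs took 0.210% to 0.307% in nuc against 2.16% to 4.65% in cyto. Of the single fraction markers, SNORD118 held larger shares in nuc, SNORD3A did so in control cells and overlapped in siSSB cells, RN7SL1, RN7SL2 and SNORA73B overlapped, and SCARNA2, MALAT1 and NEAT1 held smaller shares in nuc (MALAT1 0.00179% to 0.00268% in control nuc and 0.0136% to 0.0170% in control cyto), against their nuclear label. These are shares of a sum that snoRNA rows fill far more in nuc, so a smaller share there does not by itself give a smaller amount. Of 10 miRNA markers of blood, liver and muscle, 8 had a row. Their summed counts were 0 to 1 in both nuc groups, 1 to 4 in control total, 5 to 13 in siSSB total, 5 to 14 in control cyto and 9 to 29 in siSSB cyto, and their part in the results was not tested. No row is named SSB, so the knockdown could not be read from its mRNA. HSALNG0020274, a row over SSB exons, had 698, 1267 and 547 counts in siSSB total against 12, 15 and 19 in control total, and lnc-CCDC173-3, also at that locus, held 5, 8 and 5 counts and then 0 in each.

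VTRNA1-2 held most vault RNA counts in every group. Its counts in replicates 1, 2 and 3 were 35523, 29373 and 25537 in total, 3429, 2210 and 1273 in nuc, and 64379, 37925 and 95327 in cyto RNA of control cells. Of the counts of the 4 genes together it took 93.3% ± 0.491 (SD, n = 3) in control total, 87.3% ± 3.48 in control nuc and 94.5% ± 0.817 in control cyto, and in siSSB cells 91.5% ± 0.894, 86.9% ± 1.14 and 92.6% ± 0.824. Its share was thus lower in nuc than in total or cyto in both conditions.

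VTRNA1-1 came next, with 2661, 1873 and 1797 counts in total, 344, 278 and 224 in nuc, and 2975, 2233 and 6062 in cyto RNA of control cells. VTRNA1-3 was far lower, at 82, 66 and 52 counts in control total RNA, 24, 21 and 28 in nuc, and 85, 49 and 135 in cyto. VTRNA2-1 had 14, 10 and 7 counts in control total, 7, 7 and 28 in control cyto, and none in any nuc library. A count of 0 allows up to 3 counts, which was 3.76e-05% to 5.66e-05% of the small row sum of a nuc library. No molecular identifiers are described in the sources used here, so such floors cover counting error only.

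Per length, the order was the same in all 6 groups and no neighbouring ranges overlapped. Levels as TMM-scaled CPM (counts relative to the scaled library size) per kb of the counted row, with 1 scaling over the 18 libraries, were 3580 ± 853 (SD, n = 3) for VTRNA1-2, 234 ± 69.5 for VTRNA1-1, 7.94 ± 2.34 for VTRNA1-3 and 1.13 ± 0.460 for VTRNA2-1 in control total. VTRNA1-2 was 15.3-fold above VTRNA1-1 there, 19.2-fold above it in control cyto and 8.61-fold above it in control nuc. VTRNA1-1 in turn was 29.5-fold above VTRNA1-3 in control total, 38.5-fold in control cyto and 10.6-fold in control nuc.

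Across groups, VTRNA1-2 was at 4398 ± 1326 in control cyto, 901 ± 193 in siSSB cyto, 597 ± 192 in siSSB total, 550 ± 203 in control nuc and 130 ± 6.29 in siSSB nuc on this scale. The ranges of control total and control cyto overlapped, as did those of siSSB total and control nuc. VTRNA1-1 showed the same order of conditions within each preparation, with 229 ± 76.2 in control cyto against 64.0 ± 6.15 in siSSB cyto, and 63.9 ± 7.25 in control nuc against 16.5 ± 2.27 in siSSB nuc.

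**Figure D1:**
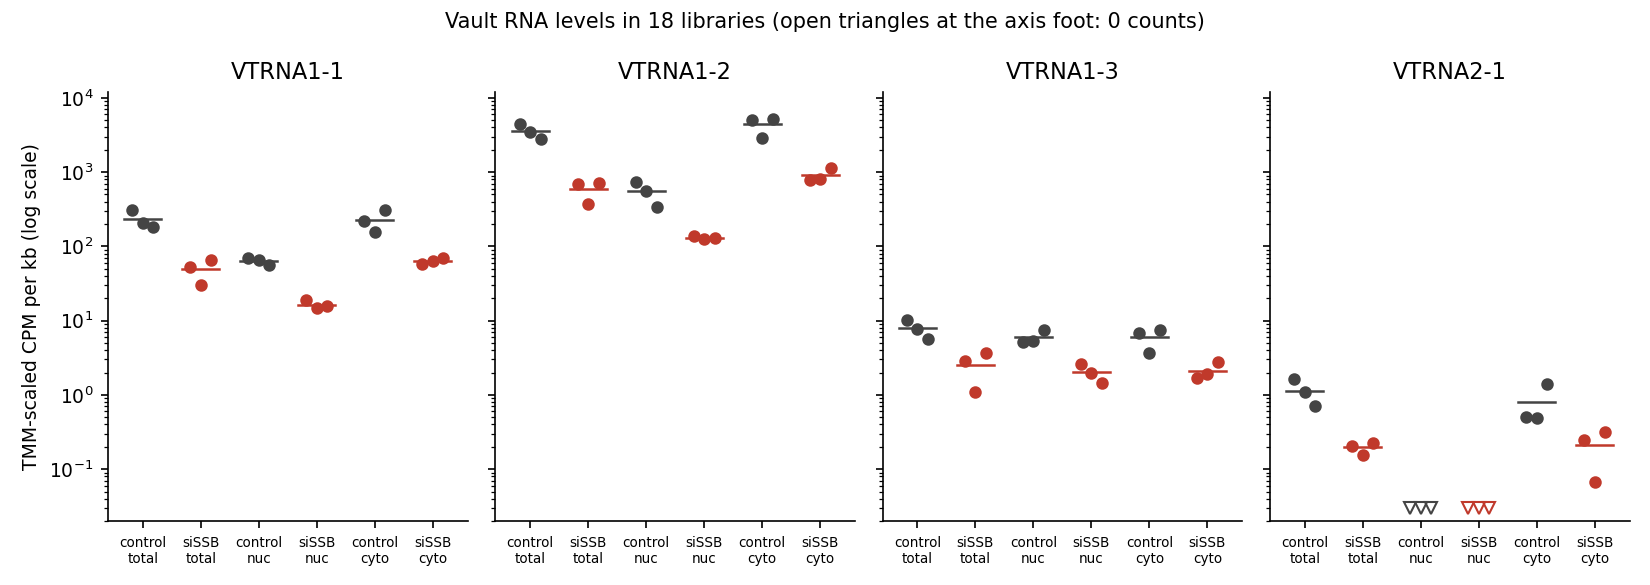
TMM-scaled CPM per kb of the counted row (log axis) of the 4 vault RNA genes in each of the 18 libraries, with control libraries in grey, siSSB libraries in red and a line at the mean of 3. In each panel the 3 siSSB points of total and of cyto lie below the 3 control points, VTRNA1-3 lies at like levels in total, nuc and cyto on this scale, and VTRNA2-1 had 0 counts in all nuc libraries.

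In total RNA, all 3 VTRNA1 genes fell after siSSB. VTRNA1-2 went to 6149, 4418 and 5801 counts in siSSB total, VTRNA1-1 to 494, 377 and 577, and VTRNA1-3 to 25, 13 and 30. VTRNA1-2 was at 486 ± 125 TMM-scaled CPM (SD, n = 3) in control and 81.3 ± 24.8 in siSSB libraries, a log2 fold change of -2.58 ± 0.38 (SE), or 5.98-fold lower (edgeR quasi-likelihood F-test, Benjamini-Hochberg adjusted p = 0.0123). VTRNA1-1 was at 34.1 ± 10.8 against 7.20 ± 2.35 CPM, a change of -2.25 ± 0.34 or 4.74-fold lower (edgeR adjusted p = 0.0128). VTRNA1-3 was at 1.08 ± 0.337 against 0.344 ± 0.165 CPM, a change of -1.67 ± 0.37 or 3.18-fold lower (edgeR adjusted p = 0.0491). Of 13883 rows tested, 0.972% were called lower in siSSB. All siSSB values of the 3 genes lay under all control values, a separation that 9.05% of the tested rows also showed.

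The calls for VTRNA1-1 and VTRNA1-2 in total RNA held in all 17 alternatives run. The call for VTRNA1-3 was lost in 9 of 16, among them the fits without control total replicate 1 (adjusted p = 0.0517) or replicate 2 (0.120) and without siSSB total replicate 1 (0.0888) or replicate 2 (0.127). VTRNA2-1 fell from 14, 10 and 7 counts to 2 in each siSSB total library and did not pass the filter on low counts. Its 2 counts per siSSB library could not meet that filter, so a fit could keep it only without the filter or through other libraries. No test of it is given.

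In the nuclear fraction, VTRNA1-1 and VTRNA1-2 fell. VTRNA1-2 went from 3429, 2210 and 1273 counts to 635, 689 and 532, which was 18.6 ± 6.12 against 4.95 ± 0.0845 CPM and a log2 fold change of -1.91 ± 0.31, or 3.76-fold lower (edgeR adjusted p = 0.00585). VTRNA1-1 went from 344, 278 and 224 counts to 95, 88 and 69, a change of -1.80 ± 0.27 or 3.48-fold lower (edgeR adjusted p = 0.00473). VTRNA1-3 had 12, 11 and 6 counts in siSSB nuc, a change of -1.40 ± 0.37 that did not pass (edgeR adjusted p = 0.135), and at 6 to 28 counts per nuc library its counting error is wide. Of 6873 rows tested, 0.349% were called lower, and 9.06% showed the full separation of the groups that these 3 genes showed too. Without siSSB nuc replicate 2, both calls were lost: VTRNA1-1 and VTRNA1-2 each had an edgeR adjusted p of 0.197, with changes of -1.75 and -1.91. Both were lost under 4 other scalings too, with edgeR adjusted p of 0.0607 to 0.126.

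In the cytoplasmic fraction, the same genes passed the test. VTRNA1-2 went from 64379, 37925 and 95327 counts to 14442, 10932 and 15992, which was 2333 ± 541 against 482 ± 83.6 CPM and a log2 fold change of -2.28 ± 0.29, or 4.84-fold lower (edgeR adjusted p = 0.0273). VTRNA1-1 went from 2975, 2233 and 6062 counts to 1147, 941 and 1069, a change of -1.83 ± 0.28 or 3.55-fold lower (edgeR adjusted p = 0.0342). VTRNA1-3 had 31, 26 and 40 counts in siSSB cyto, a change of -1.48 ± 0.28 that did not pass (edgeR adjusted p = 0.0709). Of 18921 rows tested, 0.270% were called lower, and 7.53% were separated as these 3 genes were. VTRNA2-1 had 5, 1 and 5 counts in siSSB cyto and was not tested.

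The cytoplasmic calls depended on single libraries and on the scaling. Leaving out any 1 of the 6 cyto libraries ended the call of VTRNA1-1 (edgeR adjusted p from 0.0634 to 0.207), while its change stayed at -1.54 or lower. The call of VTRNA1-2 was lost without control cyto replicate 1 (0.140), siSSB cyto replicate 1 (0.172) or siSSB cyto replicate 2 (0.0910), with changes of -2.47 to -2.12 over the 6 fits. Other scalings ended the call of VTRNA1-1 with library size alone (edgeR adjusted p = 0.0707), RLE factors (0.0569), the total of rows of at most 500 nt (0.0652) and the snoRNA total (0.510), and that of VTRNA1-2 with the snoRNA total (0.0674). A table of only rows of at most 500 nt ended the call of VTRNA1-1 too (edgeR adjusted p = 0.0553). With a replicate block neither was called (0.274 and 0.242).

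**Figure D2:**
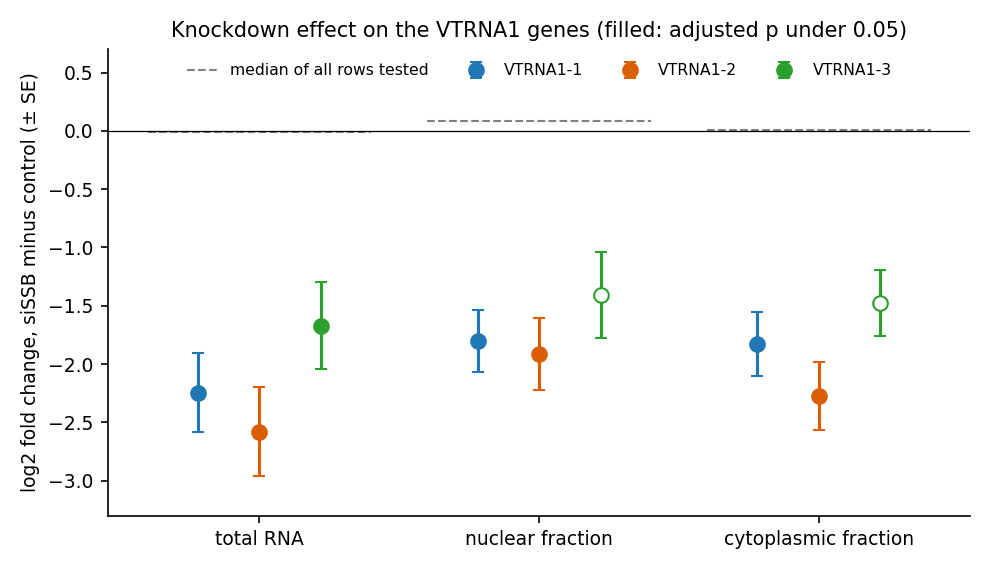
Log2 fold change, siSSB minus control, of VTRNA1-1, VTRNA1-2 and VTRNA1-3 in total RNA and in each fraction, with the standard error as bars and the median of all tested rows as a dashed line. Filled points have an adjusted p under 0.05, all 9 points lie between -2.58 and -1.40, and VTRNA1-2 has the lowest and VTRNA1-3 the highest value in each preparation.

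The size of these changes depends on the scaling between libraries, since other scalings moved the median of all rows from -0.60 to 0.72 in total RNA, from -0.03 to 0.43 in nuc and from -0.13 to 0.39 in cyto. Such a shift moves all rows nearly alike, so the distance from that median can change little and is no check. Relative to that median, VTRNA1-2 was at -2.62 to -2.50 in total, -2.07 to -1.97 in nuc and -2.37 to -2.23 in cyto over 6 scalings. VTRNA1-1 was at -2.29 to -2.15, -1.90 to -1.88 and -1.92 to -1.77, and VTRNA1-3 at -1.76 to -1.60, -1.49 to -1.46 and -1.61 to -1.42. With library size alone, the whole table had 625 rows called higher and 88 called lower in total RNA, against 51 and 135 with TMM, so the balance of calls depends on the scaling. The 3 VTRNA1 genes had negative values under each, although some calls were lost, and VTRNA2-1 did not pass the filter on low counts in any of the 3 preparations.

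Ratios between paralogs within a library need no scaling and compare their responses directly. The log2 count ratio of VTRNA1-2 to VTRNA1-1 was 3.85 ± 0.12 (SD, n = 3) in control total against 3.50 ± 0.16 in siSSB total, and 4.17 ± 0.24 in control cyto against 3.70 ± 0.19 in siSSB cyto, with no overlap of the ranges in either. In nuc it was 2.94 ± 0.41 against 2.88 ± 0.12 and the ranges overlapped. Over the 18 libraries the ratio was 0.29 ± 0.11 (SE) lower on the log2 scale in siSSB (difference -0.29, exact permutation test within preparations, two-sided, p = 0.0213, adjusted over 6 ratio tests 0.0213). Its adjusted p was 0.0660 without control nuc replicate 1 and 0.0513 without siSSB nuc replicate 1, and 0.0015 without control nuc replicate 3, the library with the lowest such ratio among the 18.

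VTRNA1-3 counts were lowered less than those of both neighbours over the 18 libraries. Its log2 count ratio to VTRNA1-1 went from -4.98 ± 0.14 in control total to -4.44 ± 0.32 in siSSB total, and its ratio to VTRNA1-2 from -8.82 ± 0.09 to -7.95 ± 0.39. With 0.5 added to each count, neither pair of ranges overlapped. Without it, the ratio to VTRNA1-1 was 0.0352 in control total replicate 2 and 0.0345 in siSSB total replicate 2, so those ranges overlapped. In cyto the ratio to VTRNA1-2 went from -9.53 ± 0.07 to -8.72 ± 0.11, without overlap. The ranges overlapped for the ratio to VTRNA1-1 in cyto (-5.37 ± 0.21 against -5.02 ± 0.26) and for both ratios in nuc (-3.50 ± 0.45 against -3.10 ± 0.28 to VTRNA1-1, and -6.43 ± 0.85 against -5.98 ± 0.35 to VTRNA1-2). Over all libraries the ratio to VTRNA1-1 was higher in siSSB by 0.43 ± 0.14 (exact permutation test, two-sided, p = 0.00875, adjusted 0.0105) and that to VTRNA1-2 by 0.71 ± 0.20 (exact permutation test, p = 0.00425, adjusted 0.0075), which is 1.34-fold and 1.64-fold. With 2 in place of 0.5 added to each count, these differences were 0.50 and 0.79, so a larger added count raised them. Both ratios kept an adjusted p under the threshold of 0.05 without any 1 of the 18 libraries. Within a single preparation 3 libraries against 3 cannot give an exact p under 0.1, and if the preparations of a replicate number came from 1 culture the 9 libraries of a condition are not independent, so these p-values would be too small. Whether reads of VTRNA1-2 or VTRNA1-1 counted in VTRNA1-3 shift these ratios was not tested.

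**Figure D3:**
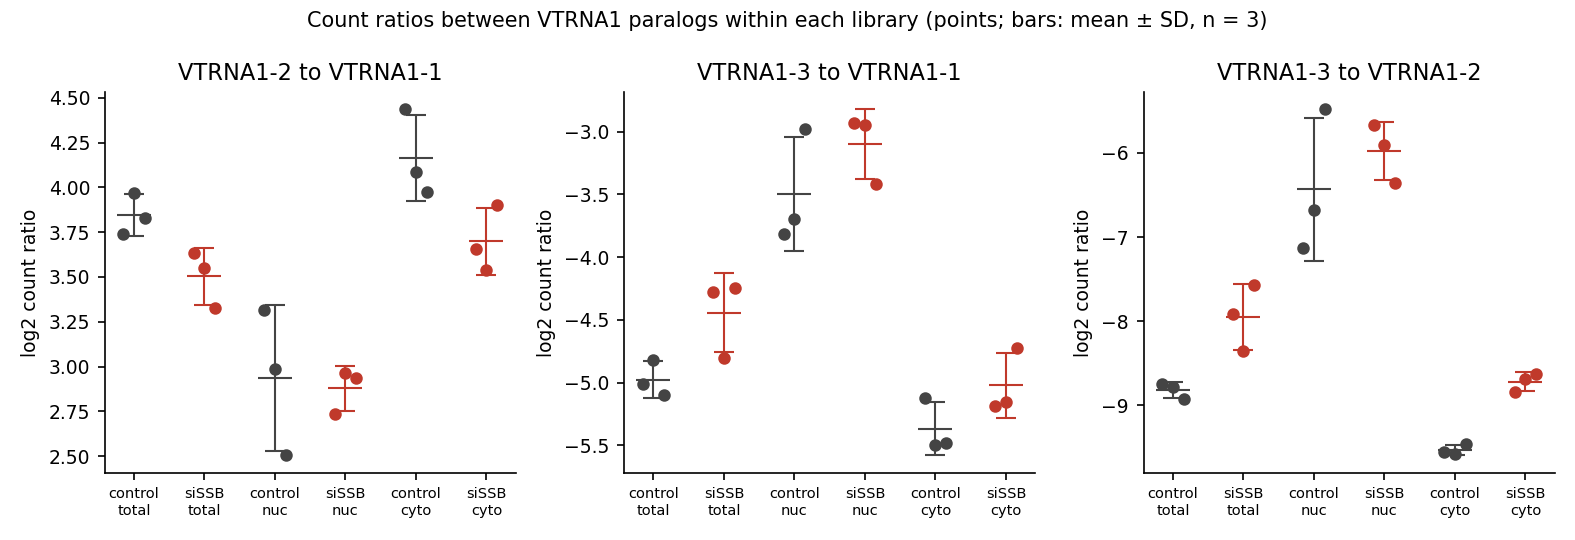
Log2 count ratio of each pair of VTRNA1 paralogs in each of the 18 libraries, with the mean and SD of 3 libraries as a horizontal mark and bars, control in grey and siSSB in red. The ratio of VTRNA1-2 to VTRNA1-1 is lowest in the nuc groups (means 2.94 and 2.88), and both ratios of VTRNA1-3 are highest there.

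The paralogs were spread differently over the fractions. In control cells the log2 count ratio of VTRNA1-3 to VTRNA1-2 was -6.43 ± 0.85 in nuc and -9.53 ± 0.07 in cyto, and in siSSB cells -5.98 ± 0.35 and -8.72 ± 0.11. Over both conditions it was higher in nuc by 2.92 ± 0.27, or 7.57-fold, that of VTRNA1-3 to VTRNA1-1 was higher by 1.90 ± 0.18, or 3.72-fold, and that of VTRNA1-2 to VTRNA1-1 differed by -1.02 ± 0.15. Each had an exact two-sided permutation p of 0.005, the smallest that the 400 arrangements can give, and 0.0075 after adjustment. Ranges of nuc and cyto did not overlap in either condition, so leaving out 1 fraction library could not end a call. Relative to the cytoplasm, VTRNA1-2 counts were thus the least nuclear of the 3 and VTRNA1-3 counts the most. The nuclear counts of VTRNA1-3, 6 to 28 per library, are few, and reads shared with the other paralogs were not separated.

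Between fractions the level of a single gene depends on the scaling. With TMM, VTRNA1-2 was lower in nuc, at 70.5 ± 24.7 against 514 ± 128 CPM in control cells (log2 fold change -2.87 ± 0.33, edgeR adjusted p = 2.04e-08) and at -2.68 ± 0.30 in siSSB cells (edgeR adjusted p = 6.94e-08). VTRNA1-1 was lower too, by -1.70 ± 0.30 (edgeR adjusted p = 3.78e-05) and -1.84 ± 0.32 (edgeR adjusted p = 5.83e-05). VTRNA1-3 gave 0.15 ± 0.35 and 0.05 ± 0.39, neither past the test (edgeR adjusted p = 0.802 and 0.949). Of the rows tested, 14.1% in control and 14.5% in siSSB cells were called lower in nuc, so a call in that direction is common in this table.

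Other scalings moved the median of all rows as low as -6.11 in control and -6.00 in siSSB cells. VTRNA1-3 turned to -3.97 with library size alone, -2.77 with the total of rows of at most 500 nt and -5.75 with the snoRNA total in control cells, each past the test. A change of scaling shifts all rows nearly alike, so a distance from their median can move little and is no check. Relative to the median of all rows, the 3 VTRNA1 genes moved little over the 6 scalings. VTRNA1-2 was at -2.72 to -2.58 in control and -2.59 to -2.45 in siSSB cells, VTRNA1-1 at -1.52 to -1.43 and -1.75 to -1.65, and VTRNA1-3 at 0.33 to 0.43 and 0.17 to 0.30.

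VTRNA2-1 had 42 counts over the 3 control cyto libraries and 0 over the 3 control nuc libraries. It passed the filter on low counts through the cyto libraries only, so no test of it is given. Its TMM-scaled cytoplasmic values were 0.0638, 0.0676 and 0.173 CPM against a floor of 0.0956 CPM for 3 counts per nuc library, and only replicate 3 lay above it. Scaled to the total of rows of at most 500 nt, the mean was at least 7.87-fold lower in nuc. On that scale the median of all tested rows was itself at a log2 fold change of -3.15, and 25261 of 26774 rows were called lower in nuc. A difference beyond that of most rows is thus not shown for VTRNA2-1. In siSSB cells it had 11 counts against 0, a TMM-scaled cytoplasmic mean of 0.0353 CPM that lay under the nuclear floor of 0.104 CPM, so no difference was detectable on that scale.

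**Figure D4:**
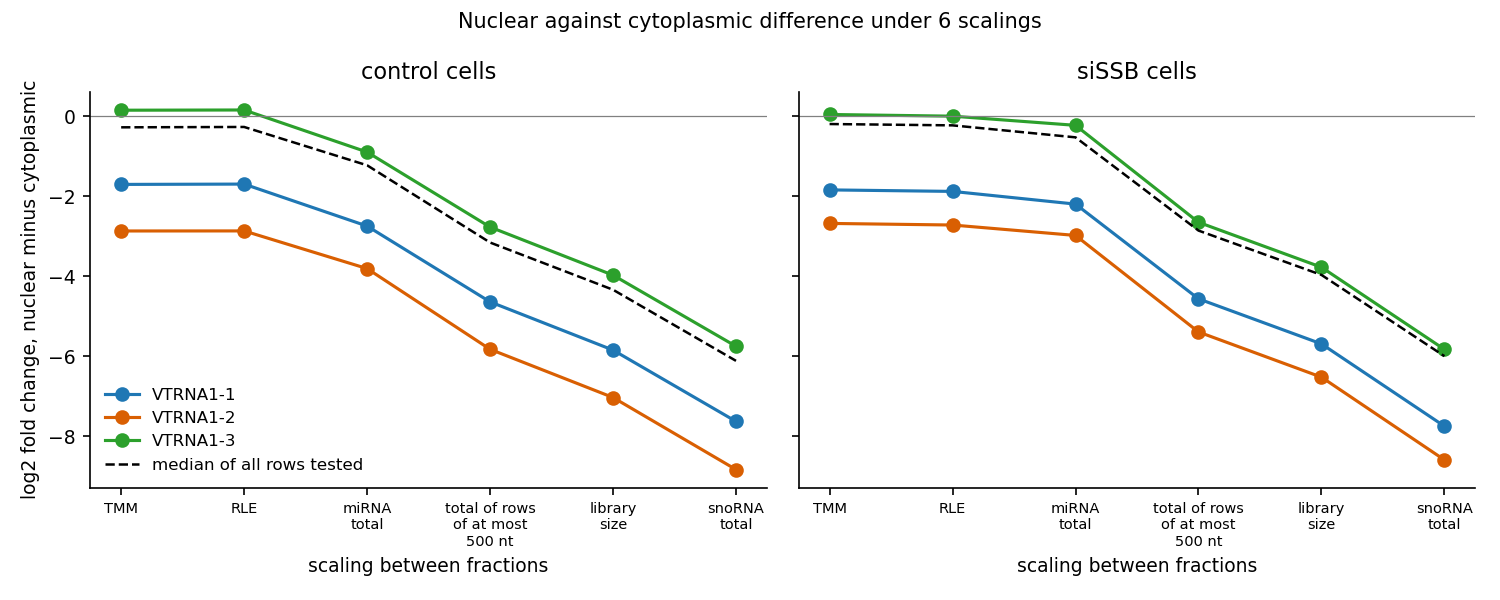
Log2 fold change, nuclear minus cytoplasmic, of VTRNA1-1, VTRNA1-2 and VTRNA1-3 under 6 scalings between fractions, in control cells (left) and siSSB cells (right), with the median of all tested rows dashed. A change of scaling shifts all rows nearly alike, so the 3 genes keep their order and nearly their distance from the median. VTRNA1-3 lies near 0 with TMM and at -5.75 (control) and -5.83 (siSSB) with the snoRNA total.

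A difference of the knockdown effect between nucleus and cytoplasm was not detected for any vault RNA gene. The nuclear minus cytoplasmic change was -0.12 ± 0.43 for VTRNA1-1, 0.20 ± 0.42 for VTRNA1-2 and -0.09 ± 0.54 for VTRNA1-3 (edgeR interaction test on 12 libraries, adjusted p = 1.00 for each, unadjusted 0.781, 0.638 and 0.871), and DESeq2 called none either, with unadjusted p of 0.610, 0.739 and 0.791. Of all 37493 rows, 0.0133% passed this test. The standard errors of 0.42 to 0.54 limit how small a difference could be seen. VTRNA2-1, with no nuclear counts, gives no value here. These are bulk libraries, in which fewer cells holding an RNA and less of it per cell cannot be told apart.

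Other Pol III RNAs give the setting of these changes, from a list of 12: the 7SK RNA RN7SK, which restrains transcription elongation, the RNase MRP and RNase P RNAs RMRP and RPPH1, the Y RNAs RNY1, RNY3, RNY4 and RNY5, the signal recognition particle RNAs RN7SL1 and RN7SL2, BCYRN1, the minor spliceosome RNA RNU6ATAC and the snaR-A copy of highest count, SNAR-A14. In total RNA, 1 of the 10 tested fell and none rose, with a median of -0.33 against -0.01 over all rows. SNAR-A14 changed by -2.53 ± 0.47 (edgeR adjusted p = 0.0288), like VTRNA1-2 in size, and the next in size, RNY3 and RNY5, gave -0.90 and -0.44 without passing. In nuc, 1 of 10 fell, SNAR-A14 at -2.28 ± 0.37 (edgeR adjusted p = 0.00585), with RNY3 at -1.08 and RNY5 at -0.99 (edgeR adjusted p = 0.170 and 0.234). SNAR-A14 was called there under 3 of 6 scalings, and DESeq2 called 2 of the list. In cyto 0 of the 10 passed with edgeR (0 at an unadjusted p under 0.05, and 0 with DESeq2, where 1 had such an unadjusted p), and SNAR-A14, at -1.02 ± 0.46 (edgeR adjusted p = 0.753), RN7SK, at -0.23, and RNY1, at -0.12, were the largest, where VTRNA1-2 was at -2.28. The snaR-A copies share reads, so the value of 1 copy is uncertain.

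Between fractions with TMM, 5 of the 11 list members tested were higher and 5 lower in nuc in control cells. Of all 26774 rows tested there, 2465 were called higher and 3777 lower. RNY1 was at -4.01 ± 0.34 and RNY4 at -3.35 ± 0.33, where VTRNA1-2 was at -2.87, and RN7SL1 (3.05 ± 0.43) was higher in nuc with TMM but reached -2.84 with the snoRNA total. RMRP, RPPH1, RN7SL2 and SNAR-A14 turned negative under other scalings as well, down to -3.87, -3.80, -2.99 and -4.47. In siSSB cells 4 of 11 were higher and 5 lower, led by RNY1 (-4.63), RNY4 (-4.14) and RNY5 (-2.96), and these Y RNAs were lower under all 6 scalings. Of all 26274 rows, 2851 were called higher and 3799 lower there, and the list members higher with TMM again turned negative under other scalings. Of the 12, 0 passed the test of the nuclear minus cytoplasmic knockdown effect with edgeR or DESeq2, and 3 had an unadjusted p under 0.05 in each.

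The rows whose TMM-scaled log2 CPM over the 18 libraries was most like that of a vault RNA gene, among 1131 rows of at most 500 nt with a mean of at least 50 counts, were tRNA genes and 1 tRNA-like tRX gene, apart from the paralogs themselves. The points share libraries, scaling and depth, so the values are descriptions. For VTRNA1-1 the highest Pearson correlation was with its paralog VTRNA1-2 (r = 0.981), before tRNA-Asn-GTT-1-6 (0.952), tRNA-Tyr-GTA-4-1 (0.952) and tRNA-Arg-CCT-1-1 (0.944). For VTRNA1-2 the nearest rows after VTRNA1-1 were tRNA-Asn-GTT-27-1 (0.971), tRNA-Thr-TGT-1-1 (0.969) and tRNA-Arg-CCT-1-1 (0.968). VTRNA1-3 followed tRNA-Lys-TTT-9-1 (0.898), tRX-Cys-NNN-4-1 (0.883) and tRNA-Arg-ACG-2-5 (0.871) more closely than VTRNA1-1 (0.792) or VTRNA1-2 (0.680). Scaled to the total of rows of at most 500 nt, VTRNA1-1 was instead the nearest of all to VTRNA1-3 (r = 0.975), so this order depends on the scaling.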

How the data were processed

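The authors deposited 1 table of raw read counts per noncoding RNA row (RNAcentral entries with 25 nt flanks), without normalization. The submitters' processing notes name hg38, Bowtie2 and bedtools, and trimming, the treatment of reads with several positions and strand are not given in the sources used here. No column was left unmapped (0). Members, lists and tests were chosen with earlier results of these data known.

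Groups were taken from the sample titles. All rows were fitted with edgeR 4.0.16 (R 4.3.3, limma 3.58.1), using filterByExpr, TMM factors and the quasi-likelihood F-test with group means, with Benjamini-Hochberg adjustment across the tested rows and a threshold of 0.05. The standard error is that implied by the F statistic. Ratios between paralogs, with 0.5 added to each count, were compared by exact permutation within strata (8000 or 400 arrangements) in Python 3.11.15. DESeq2 1.42.0, other scalings, filters, left-out libraries and a replicate block were tried. The snoRNA, miRNA and small row totals used as scalings sum rows of at most 500 nt. Replicate numbers were checked for pairing: correlations of same-numbered libraries' deviations were -0.42 to 0.13 over 15 pairs, so the numbers were not treated as pairs. Those of libraries of unlike number were -0.31 to 0.43, and any structure they share was not modelled.

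Named were the members, rows overlapping them, other vault rows, a Pol III list (per comparison up to 3 of largest change), fraction and cell type markers, and the rows most like each VTRNA1 gene. Sequences were read from hg38, and gene ends matched RefSeq for the VTRNA1 genes. For VTRNA2-1 the row without its flanks gives 101 nt, where RefSeq gives 108 nt. Tested on simulated data, edgeR recovered 99% of 4-fold and 30% of 2-fold changes in the comparison of total RNA (13883 rows). The simulation changed only rows of higher mean counts and used a common dispersion, so these rates do not cover VTRNA1-3 or VTRNA2-1.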

Additional observations from a re-analysis of the deposited data

How the results depend on the processing

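The number of vault RNA genes called stayed within 1.5 times its value in total RNA (3 genes, 2 to 3 over the fits without 1 library). It did so between fractions too, where VTRNA2-1 is left out because it passed the filter on low counts through cyto only. There, VTRNA1-1 and VTRNA1-2 were called in control and in siSSB cells, each in all 6 fits without 1 library. The number was 0 for the nuclear minus cytoplasmic effect, 0 to 0 without 1 library. In nuc, 2 genes were called with TMM and 0 with library size alone, the snoRNA total, the miRNA total or the total of rows of at most 500 nt, and 0 to 2 without 1 library. In cyto, 2 were called with TMM, 1 with library size alone, RLE factors, the total of rows of at most 500 nt or a table of only such rows, 0 with the snoRNA total and 0 to 1 without 1 library. The replicate block took the cyto count from 2 to 0 and changed no other count by over 1.5 times. The cause was not tested.

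Over the whole table, 186 calls in total RNA became 69 to 2899 over 17 alternatives, 26 in nuc 0 to 67, 55 in cyto 2 to 248, 6242 between fractions in control cells 1574 to 26438, 6650 in siSSB cells 1519 to 25877, and 5 for the nuclear minus cytoplasmic effect 1 to 24 over 23 alternatives.

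For VTRNA1-3, nuclear against cytoplasmic, the value turned negative in control cells with library size alone (-3.97), the snoRNA total (-5.75), the miRNA total (-0.89), the total of rows of at most 500 nt (-2.77) and no filter (-0.34), and lay between -0.15 and 0.29 without 1 library. In siSSB cells it turned to -3.77, -5.83, -0.22, -2.65 and -0.33 under the same settings, -0.00047 with DESeq2, -0.070 with all 18 libraries in 1 fit, and -0.17 to 0.26 without 1 library. The nuclear minus cytoplasmic effect, never called, turned positive for VTRNA1-1 with library size alone (0.16), the miRNA total (0.55), the total of rows of at most 500 nt (0.076) and only such rows (0.014), and for VTRNA1-3 under the same settings (0.20, 0.67, 0.12 and 0.037). Without 1 library it was -0.28 to 0.075 for VTRNA1-1, -0.038 to 0.47 for VTRNA1-2 and -0.30 to 0.20 for VTRNA1-3.

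In a single preparation or condition the ratio tests cannot pass, and the differences, siSSB minus control, of VTRNA1-2 to VTRNA1-1 were -0.34 in total, -0.058 in nuc and -0.47 in cyto (-0.36 to -0.23 without 1 library). For VTRNA1-3 to VTRNA1-1 they were 0.53, 0.40 and 0.35 (0.37 to 0.51), and for VTRNA1-3 to VTRNA1-2 0.87, 0.45 and 0.81 (0.60 to 0.87). Nuclear minus cytoplasmic, the same ratios were -1.23, 1.87 and 3.10 in control and -0.82, 1.92 and 2.74 in siSSB cells. Paired by replicate number, although the numbers were not treated as pairs elsewhere, all 6 ratio tests had an adjusted p of 0.0430 (exact sign-flip test).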

Other observations

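A row on chromosome X (53462184 to 53462335, plus strand, hg38), annotated as a vault RNA and lying at the VTRNA3-1P locus, which is classed as a pseudogene, held reads in most libraries. Its counts were 19, 13 and 15 in control total, 3, 7 and 5 in siSSB total, 44, 20 and 56 in control cyto, and 12, 9 and 17 in siSSB cyto. In nuc it had 1, 0 and 2 counts in control and 0, 1 and 0 in siSSB libraries. The 3 siSSB libraries lay under the 3 control libraries in total and in cyto as raw counts. On scaled values, 9.05% of the rows tested in total and 7.53% of those in cyto showed such a separation. Raw counts also follow depth: rows of at most 500 nt summed to 3341340 to 4662368 counts in siSSB total and 4700888 to 6420960 in control total. The longest stretch it shares with VTRNA1-1 is 31 nt, and with VTRNA1-2, which held 354566 counts over all libraries, 29 nt. Of its 20-nt windows, 84.3% were found once in the genome. Whether reads of the VTRNA1 genes were counted in this row was not tested. These counts were not tested. Of the other vault RNA rows, 4 had 0 or 1 count over all libraries, and ENSG00000198785.5, a row of 169278 nt on chromosome 9 labelled as a vault RNA, had 0 to 9 counts per library.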
